A study of Drosophila melanogaster with 3 samples.

Results

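In 0 to 24 h Drosophila melanogaster embryos, 282 of 2475 reproducible NK7.1 ChIP-seq peaks, or 11.4% (exact 95% interval 10.2 to 12.7), had their summit outside the body of every protein-coding gene and more than 1 kb from every coding transcription start site (TSS). Within the reproducible list, summit position was the only property used to choose these peaks, and annotated noncoding RNA genes were allowed to hold the summit. Of the other peaks, 1526 had a summit within 1 kb of a coding TSS and 667 lay inside a coding gene farther from a TSS. The embryos were of mixed sex and came from a transgenic line that stably expressed NK7.1 with green fluorescent protein (eGFP) at its C-terminus, and the sample descriptions name an anti-GFP antibody for the immunoprecipitation, while the antibody field of the labels names NK7.1. All 3 libraries were biological replicates of this 1 group, so no treated or untagged group enters any comparison. Whole embryos of all ages were pooled, so a peak cannot be assigned to a tissue or a stage.

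NK7.1 is a homeobox gene of the NK class, and homeodomain proteins of this class bind short A+T-rich cores in DNA. In the compact fly genome most regulatory DNA lies close to promoters or in introns. Sites between genes are of interest because enhancers that drive patterned embryonic expression can lie there, often several per gene and at a distance from the promoter. Long noncoding RNA genes, many of them with no known role, also occupy this space.

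A minority of the peaks outside coding genes, 35 of 282, carried a short word beside the summit, CACTGAG. The following 5 regions are shown because they were the strongest ones that carried it, leaving out 1 chromosome arm from which no sequence is printed. Each is 201 bases of the plus strand of dm6 centred on the summit, and capitals mark the word on either strand.
slp2 region, chr2L:3832426-3832626: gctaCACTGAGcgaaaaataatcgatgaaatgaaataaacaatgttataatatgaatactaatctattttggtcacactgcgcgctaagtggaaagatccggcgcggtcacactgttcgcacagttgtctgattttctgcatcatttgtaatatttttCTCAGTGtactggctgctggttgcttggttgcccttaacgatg
noc region, chr2L:14502682-14502882: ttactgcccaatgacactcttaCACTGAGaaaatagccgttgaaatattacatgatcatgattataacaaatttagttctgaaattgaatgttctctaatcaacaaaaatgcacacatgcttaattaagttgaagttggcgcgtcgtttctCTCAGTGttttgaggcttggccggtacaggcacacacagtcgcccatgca
CG6163 region, chr3L:11353121-11353321: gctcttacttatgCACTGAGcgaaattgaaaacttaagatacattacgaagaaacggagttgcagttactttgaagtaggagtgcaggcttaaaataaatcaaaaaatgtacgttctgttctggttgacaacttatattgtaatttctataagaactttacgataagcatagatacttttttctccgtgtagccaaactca
Shal region, chr3L:19560716-19560916: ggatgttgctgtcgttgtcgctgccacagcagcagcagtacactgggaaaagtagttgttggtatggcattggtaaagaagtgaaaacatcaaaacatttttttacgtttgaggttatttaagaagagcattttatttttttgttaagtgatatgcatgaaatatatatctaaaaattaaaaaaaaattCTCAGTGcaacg
hng3 region, chr3L:762433-762633: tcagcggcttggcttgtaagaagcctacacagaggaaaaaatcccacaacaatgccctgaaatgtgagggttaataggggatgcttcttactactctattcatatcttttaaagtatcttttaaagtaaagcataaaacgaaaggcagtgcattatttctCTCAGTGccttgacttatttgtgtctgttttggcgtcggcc

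The strongest summits differed widely in sequence and base composition, as the next 8 regions show. They are the strongest peaks outside coding genes on the arms printed here, each given as 101 bases of the plus strand of dm6 centred on the summit. Capitals mark any of the 10 motifs searched at summits, and the only one present was GCCAT, read here as ATGGC on the opposite strand in 2 of the 3 cases.
Vinr region, chrX:12751382-12751482: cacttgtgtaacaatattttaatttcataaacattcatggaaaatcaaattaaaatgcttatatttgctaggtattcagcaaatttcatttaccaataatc
hll region, chr2L:14024030-14024130: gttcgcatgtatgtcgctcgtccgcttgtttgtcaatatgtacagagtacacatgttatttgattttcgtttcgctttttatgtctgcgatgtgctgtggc
tara region, chr3R:16222440-16222540: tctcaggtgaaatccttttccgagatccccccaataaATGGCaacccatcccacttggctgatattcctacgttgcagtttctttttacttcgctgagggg
CR44619 region, chrX:12752336-12752436: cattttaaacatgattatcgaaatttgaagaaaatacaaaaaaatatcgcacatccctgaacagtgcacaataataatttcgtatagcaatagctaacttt
eEF1gamma region, chr3R:29214404-29214504: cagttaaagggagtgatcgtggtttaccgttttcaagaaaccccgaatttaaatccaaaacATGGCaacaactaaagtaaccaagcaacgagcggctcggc
chinmo region, chr2L:1638707-1638807: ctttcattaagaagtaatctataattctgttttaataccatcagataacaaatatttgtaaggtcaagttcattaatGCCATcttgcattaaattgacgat
second chinmo region, chr2L:1632798-1632898: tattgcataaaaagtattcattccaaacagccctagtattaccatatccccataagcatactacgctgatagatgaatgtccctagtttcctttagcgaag
stck region, chr3R:8355680-8355780: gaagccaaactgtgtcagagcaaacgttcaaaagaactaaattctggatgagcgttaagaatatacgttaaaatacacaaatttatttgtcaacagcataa

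The peak lists give, for each peak, a signal value on the peak caller's own scale. The replicate lists held 25801, 30000 and 30000 peaks and extend far into background, so each replicate was represented by its own top 2475 peaks, the size of the reproducible list. Read depth is unknown because the lists hold no read counts, and all intervals cover the counting of peaks only. Ranks run from 1 for the highest signal value.

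Signal values of peaks outside and inside coding genes overlapped widely. Outside coding genes they ran from 92.9 to 909 with a median of 129 and quartiles of 107 and 185. The median was 133 for peaks inside coding genes and 139 for peaks within 1 kb of a coding TSS. Among the 100 strongest reproducible peaks, 12 lay outside coding genes, 19 inside them and 69 near a coding TSS. In the replicates, the strongest overlapping peak stood at a median percentile of 95.3 ± 0.480 (SD, n = 3) for peaks outside coding genes and 95.8 ± 0.358 for all other reproducible peaks. The difference was -0.512 ± 0.140 points, lower outside coding genes in 3 of 3 replicates, and the exact sign-flip permutation test (two-sided) gave p = 0.25, the smallest value that 3 replicates allow. Among the strongest 1237 peaks of the list the difference was 0.0541 points, in the opposite direction. That subset was cut on signal itself, so it cannot decide whether the small difference over the whole list holds.

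The reproducible list was derived from these same 3 replicates, so their support describes that list and is no independent test of it. The top list of replicate 1 overlapped 227 of the 282 peaks, and those of replicates 2 and 3 each overlapped 214. As shares these were 80.5%, 75.9% and 75.9%, against 81.8%, 79.9% and 81.4% of the other reproducible peaks. The mean difference was -3.62 ± 2.15 points (SD, n = 3, lower in 3 of 3 replicates, exact sign-flip permutation p = 0.25). It turned to 0.357 points higher when each replicate's top list was made 2 times as long, and to 0.915 points higher among the strongest 1237 peaks. The cut to strong peaks leaves little room for a difference. Over ranks 1 to 990, at least 93.5% of every class was supported by all 3 replicates. All 3 replicates supported 151 of the 282 peaks, or 53.5% (exact 95% interval 47.5 to 59.5), where the background over all 2475 reproducible peaks was 57.7%. A further 75 peaks were supported by 2 replicates, 52 by 1 and 4 by none.

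Support fell with rank in every class of peak. Among ranks 1 to 495 of the reproducible list all 52 peaks outside coding genes were supported by 3 replicates. The count was 52 of 55 among ranks 496 to 990, 35 of 52 to rank 1485, 11 of 57 to rank 1980 and 1 of 66 to rank 2475. In the last of these 5 bins the supported share was 1.52% (interval 0.0384 to 8.16) outside coding genes, 7.64% (3.87 to 13.3) inside them and 5.26% (2.98 to 8.53) near a coding TSS, and the intervals overlap.

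**Figure D1:**
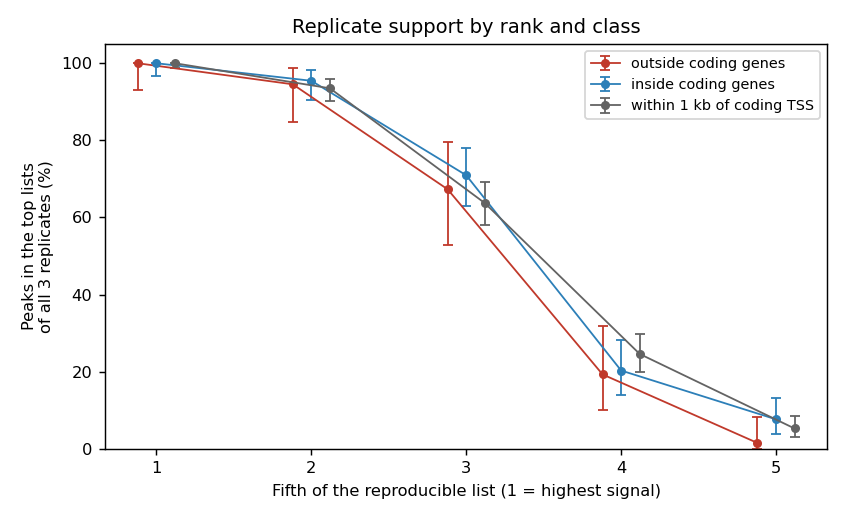
Share of peaks found in the top lists of all 3 replicates (y axis, percent, with exact 95% intervals) in 5 equal rank bins of the reproducible list (x axis, bin 1 holds the highest signal), for 282 peaks outside coding genes, 667 inside coding genes and 1526 within 1 kb of a coding TSS. All classes fall from 100% in bin 1 to between 1.52% and 7.64% in bin 5, and their intervals overlap in every bin.

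**Figure D2:**
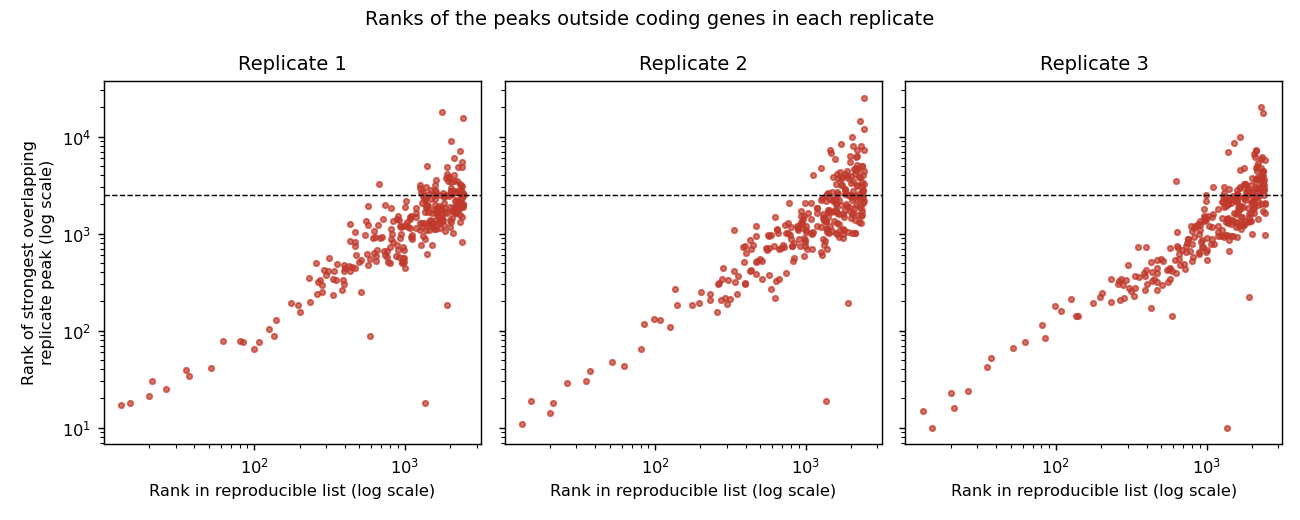
Rank of each of the 282 peaks in the reproducible list (x axis, log scale) and of the strongest overlapping peak in each replicate (y axis, log scale), one panel per replicate; the dashed line marks rank 2475. The ranks rise together, with points far from the diagonal on both sides; the lowest-placed overlaps are at ranks 17861, 25277 and 20136, and the panel of replicate 3 holds 281 peaks, as 1 peak had no overlap there.

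Summits that met the positional rule made up a smaller share of strong peaks than of weak ones. In replicate 1, 11.9% of the top 2475 summits and 19.1% of the remaining summits met the positional rule. The shares were 10.9% and 17.6% in replicate 2 and 10.5% and 15.8% in replicate 3. The difference was -6.38 ± 0.978 points (SD, n = 3, lower among top summits in 3 of 3 replicates, exact sign-flip permutation p = 0.25). In the pooled list the share was 10.6% among ranks 1 to 500 and 18.4% among ranks 20001 to 25000. The sequence that meets the rule makes up 28.3% of the 6 arms, or 37.9 Mb. No base was left out as hard to map, here or in the values per Mb below. How much of this sequence reads can reach was not measured.

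**Figure D3:**
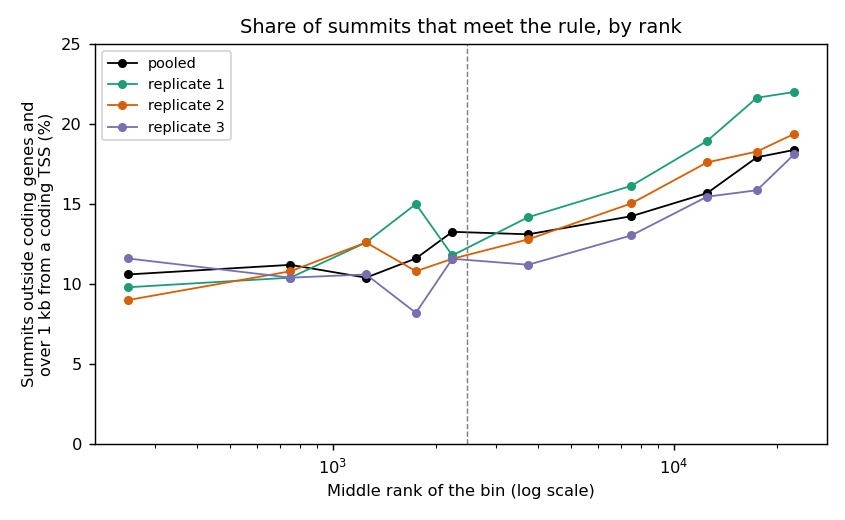
Share of summits outside coding genes and over 1 kb from a coding TSS (y axis, percent) against the middle rank of each bin (x axis, log scale) in the pooled list and the 3 replicate lists; the dashed line marks rank 2475. Every list stays between 8.2% and 15% over the first 2475 ranks and lies between 18.1% and 22% in the last bin.

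Distances to the nearest coding TSS ran from 1007 to 59554 bp with a median of 5136 bp. From 1 to 2 kb lay 56 peaks, from 2 to 5 kb 83, from 5 to 10 kb 58, from 10 to 20 kb 74, and beyond 20 kb 11. The nearest TSS belonged to a gene that the summit was upstream of in 164 cases and downstream of in 118. At the limit of the rule, a peak at chr3R:11779925-11780344 with signal 115 was kept at 1007 bp from the TSS of l(3)neo38, and one at chr3R:5126859-5127278 with signal 93.2 was kept at 1018 bp from that of RabGGTa. Just on the other side, a peak at chr2L:6351791-6352210 with signal 168 was 967 bp from the TSS of CG9498, and one at chr2R:7246496-7246915 with signal 117 was 930 bp from that of Adk3. The peak farthest from any coding gene, chr3L:18348589-18349008, had a summit 44382 bp from grim and 48736 bp from rpr, both activators of programmed cell death. It was weak, with signal 101, and stood at ranks 1015, 4624 and 2919 in replicates 1, 2 and 3.

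The number of peaks per Mb differed between the arms. Arm 3L held 85 of the 282 peaks, 2L 61, 3R 52, 2R 44, X 37 and chromosome 4 held 3. Per Mb of sequence that meets the rule this was 11.0 on chromosome 4, from its 3 peaks, then 9.16 on 3L, 8.70 on 2L, 6.61 on 3R, 6.23 on X and 5.87 on 2R, against 7.45 over all arms. Arm 3L had 30.1% of these peaks (exact 95% interval 24.8 to 35.9), 24.5% of the sequence that meets the rule and 19.3% of the other reproducible peaks. The interval treats each peak as independent. Some peaks on 3L lay in groups of up to 8, so the interval can be too narrow. Among each replicate's own top peaks that met the rule, 32.5%, 26.9% and 32.4% were on 3L, and among its remaining peaks that met the rule 26.1%, 25.9% and 27.0%. The top share was higher in 3 of 3 replicates, by 4.29 ± 2.85 points (SD, n = 3, exact sign-flip permutation p = 0.25), but in replicate 2 by only 1.05 points.

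Another reproducible summit lay within 5 kb of 117 of the 282 summits, or 41.5%, against 38.9% of all other reproducible summits. In the replicates' own top lists the shares were 41.8% ± 2.40 and 39.9% ± 0.630 (SD, n = 3). The difference was 1.86 ± 2.34 points, higher in 3 of 3 replicates (exact sign-flip permutation p = 0.25). It is within the spread between replicates, and was only 0.303 points in replicate 1. With gaps of at most 10 kb between neighbouring summits, 14 groups of 3 or more held 61 of the peaks, 23 groups were pairs and 175 peaks stood alone. The largest groups had 8 peaks. Within these spans no reproducible peak of another class fell between the members.

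The group with the highest summed signal, 2084, lay on 2L between RFeSP and chinmo, which encodes a zinc-finger protein that sets temporal identity in neurons. Its 8 summits spanned 32790 bp, and 6 of the 8 were supported by all 3 replicates. The strongest was chr2L:1638575-1638968, 12501 bp upstream of the chinmo TSS, with signal 594 and ranks 41, 47 and 66 in replicates 1, 2 and 3. Next came chr2L:1632716-1632950, 18410 bp upstream, with signal 533 and ranks 79, 43 and 77. Between these and the gene lay chr2L:1643262-1643415 with signal 241 and chr2L:1648723-1648852 with signal 258, at 7892 and 2453 bp from the TSS. Both ranked among the first 724 in every replicate. The 4 weaker ones had signals of 94.9, 104, 129 and 131. One of them, chr2L:1624678-1625097, lay in an exon of lncRNA:CR44603, and the weakest, chr2L:1615805-1616224, was in the top list of no replicate.

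Another group of 8, on 3L, spanned 18760 bp beside CG44362 and CG7560 and reached signal 189. Of its peaks 4 of 8 were supported by all 3 replicates. A group of 3 lay upstream of tara, a gene of the trithorax group, and its signals were 826, 469 and 109.

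The strongest peak of the class, chrX:12751196-12751605, had its summit in an exon of lncRNA:Vinr on the plus strand, with signal 909 and ranks 17, 11 and 15 in the 3 replicates. A second strong peak 954 bp away, chrX:12752191-12752527, lay in an exon of lncRNA:CR44619 with signal 751 and ranks 25, 29 and 24. Both stood among the first 30 peaks of every replicate. On 2L, chr2L:14023922-14024233 lay in an exon of lncRNA:CR31840, 19 bp from its annotated TSS and 2921 bp upstream of hll, with signal 896 and ranks 18, 19 and 10. The peak at chr3R:16222345-16222640, 3161 bp upstream of tara, had signal 826 and ranks 21, 14 and 23. At chr3R:29214282-29214596 the summit was 5718 bp upstream of eEF1gamma, which encodes a subunit of a translation elongation factor, and 108 bp from the TSS of lncRNA:CR31044. This peak had signal 641 and ranks 34, 38 and 52.

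Of the remaining 3 of the 10 strongest, chr2R:13035175-13035501 lay in a wide gap between Su(z)2, a Polycomb-group relative, and CG13323. Its summit was 27389 and 9395 bp from these genes, its signal was 821 and its ranks were 30, 18 and 16. The peak at chr2R:22802819-22803147 lay 566 bp past the nearer end of CycB, the gene for a mitotic cyclin, with signal 646 and ranks 39, 30 and 42. The weakest of the 10, chr3R:8355612-8355878, lay 1248 bp upstream of stck, which encodes an adaptor at integrin adhesion sites, with signal 485 and ranks 78, 64 and 113. All 10 were in the top list of every replicate, and none ranked below 113 in any of them.

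Noncoding RNA genes held the summit of 45 of the 282 peaks, or 16.0% (exact 95% interval 11.9 to 20.8). In 30 of these the summit was in an exon and in 15 in introns. All 3 replicates supported 32 of the 45, where the share over all 282 peaks was 53.5%. Since support fell with rank in every class and rank was not matched here, these shares do not compare reproducibility. Long noncoding RNA genes accounted for 44, and no summit lay in an annotated tRNA gene, pseudogene or transposable element, which at 3 counts of 282 allows a share of up to 1.06% for each. Among the 3955 low-ranked pooled peaks that met the same rule, 11.4% had the summit in a gene of these kinds, pseudogenes and transposable elements included. For the biotype of the 44 alone the shares were 15.6% outside coding genes and 10.3% among low-ranked peaks. In the replicates' own lists the share for all these kinds was 16.6%, 18.5% and 17.4% of top peaks that met the rule, against 11.4%, 11.8% and 11.5% of the remaining ones. The groups did not overlap, and the difference was 5.92 ± 0.684 points (SD, n = 3, higher in 3 of 3 replicates, exact sign-flip permutation p = 0.25).

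The distance to noncoding start sites showed a wider gap. A TSS of a noncoding RNA gene lay within 1 kb of 64 of the 282 summits, or 22.7% (interval 17.9 to 28.0), and of 12.7% of the low-ranked summits under the same rule. In replicates 1, 2 and 3 the share was 22.4%, 22.9% and 25.5% for top peaks that met the rule and 12.5%, 11.7% and 12.4% for the remaining ones. Top peaks were higher in 3 of 3 replicates, by 11.4 ± 1.62 points (SD, n = 3, exact sign-flip permutation p = 0.25).

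Among the hosts reported here, lncRNA:CR44619 and lncRNA:CR44357 on X held 2 summits each, lncRNA:Hsromega, a heat-inducible noncoding RNA, held 2 summits, with signals 203 and 191, and lncRNA:CR44810 beside slbo held 2, with signals 345 and 273. The strongest peak on 3L, chr3L:3249995-3250414, lay in an exon of lncRNA:CR43626 with signal 304 and ranks 195, 209 and 344. Another host, lncRNA:iab8 of the bithorax complex, held 1 weak summit in an intron with signal 93.8, found in the top list of 1 replicate. One summit lay in a small nuclear RNA gene, snRNA:7SKa, whose RNA holds the transcription elongation factor P-TEFb in an inactive complex. This peak, chr3R:7474598-7475017, had signal 132 and stood at ranks 2064, 1461 and 921. Its summit window held 68.3% G+C, far above the median of the class.

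**Figure D4:**
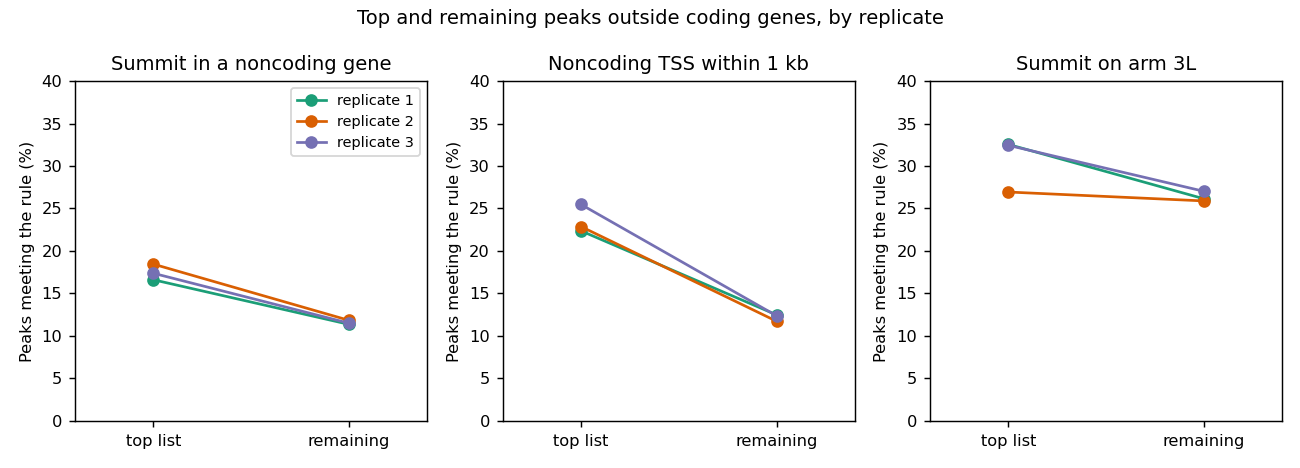
Share of peaks meeting the positional rule (y axis, percent) whose summit lay in a noncoding gene, within 1 kb of a noncoding TSS or on arm 3L, in each replicate's top 2475 peaks and in its remaining peaks; lines join the values of 1 replicate. The top list is higher in all 3 replicates in each panel, by 11.4 points on average for a noncoding TSS and by as little as 1.05 points in replicate 2 for arm 3L.

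The coding gene nearest to each summit was then read against 6 gene lists. Transcription factor genes of the embryo other than homeobox genes were nearest to 26 of the 282 summits, or 9.22% (interval 6.11 to 13.2). The share was 5.54% among low-ranked summits under the same rule. All 3 replicates supported 21 of the 26, where the share over all 282 peaks was 53.5%. Support fell with rank in every class, and chinmo was nearest to 5 of the 26 and Doc2 to 4. The 26 summits belonged to 16 genes of the 111 on the list that the annotation held. Besides chinmo these included slp2 and croc, fork head factors, noc, a zinc-finger gene, SoxN, the T-box genes mid, H15, Doc1 and Doc2, and Myc. Near slp2 the peak at chr2L:3832406-3832636 had signal 388, and the 2 peaks beside noc in this list had signals 283 and 280.

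Homeobox genes were nearest to 8 summits, or 2.84%, against 3.64% of low-ranked ones. These were Abd-B, abd-A and Antp of the Hox complexes, and eyg, hth, oc, tup and zfh2, with 1 summit each. The strongest, chr4:497819-497990, lay 3901 bp upstream of zfh2 with signal 288 and ranks 238, 305 and 323, and was also the strongest of the 3 peaks on chromosome 4. Near abd-A the signal was 221 and near oc 182, while the peaks near Abd-B and eyg were weak at 93.8 and 96.3. NK7.1 itself was not the nearest gene of any of them.

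Signalling ligands and receptors were nearest to 7 summits, or 2.48%, against 1.77% of low-ranked ones. The strongest was chr2R:8644331-8644448, 5299 bp upstream of ptc, the Hedgehog receptor gene, with signal 176 and ranks 597, 1017 and 794. Peaks near Ser, vn, upd3, pyr and ths had signals from 94.6 to 110. One summit lay near a cuticle protein gene, Cpr76Ba, at chr3L:19516645-19516788 with signal 241 and ranks 469, 751 and 265. None had a cytoplasmic ribosomal protein gene or a chemosensory receptor gene nearest, against 0.708% and 1.64% of low-ranked summits, and a count of 0 of 282 allows, by the same limit of 3 counts, a share of up to 1.06%. These counts are descriptions without a test, since neighbouring summits share a gene.

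Summits outside coding genes were poor in G and C. Within 50 bp of the summit the median G+C content was 34.7%, and it was 42.6% at equally wide flanks 500 bp away. For peaks inside coding genes the medians were 33.7% and 40.6%, and near a coding TSS 36.6% and 45.5%. In the replicates' own top peaks that met the rule, the summit median was 33.7%, 36.6% and 38.6% and the flank median 41.6%, 42.6% and 43.6%. The difference was -6.27 ± 1.51 points (SD, n = 3, lower at the summit in 3 of 3 replicates, exact sign-flip permutation p = 0.25). Remaining peaks that met the rule had summit medians of 39.6%, 43.6% and 44.6% and flank medians of 41.6%, 40.6% and 40.6%, so that their summits were higher than the flanks in 2 of 3 replicates. Between top and remaining peaks this summit-to-flank difference itself differed by -7.92 ± 1.71 points, in the same direction in 3 of 3 replicates (exact sign-flip permutation p = 0.25).

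Low G+C was not uniform among the strong sites. At the strongest peak, in lncRNA:Vinr, 23.8% of the summit window was G or C, and at the neighbouring peak in lncRNA:CR44619 27.7%. The tara summit held 47.5% and the eEF1gamma summit 44.6%, more than the upper quartile of 41.6% for the class.

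No 6-base word of all that exist, with both strands merged, differed between summit and flank windows over the 282 peaks in the exact McNemar test after Benjamini-Hochberg adjustment, neither more frequent (0 words, 0%) nor less frequent (0 words, 0%) at the summit. At an unadjusted p under 0.05, 112 words were more and 100 less frequent at the summit, and the lowest adjusted p was 0.0536. The word CAAATA was in 20.6% of summit and 8.16% of flank windows, and AAAGTA in 18.8% and 7.45%. CCCCGC was in 0 summit windows and 5.32% of flank windows. Over the 667 peaks inside coding genes the same test called 66 words more and 62 less frequent at the summit, and the difference between these classes was not tested. Of the 321 words more frequent at the summits of the other 2193 reproducible peaks, 276 (86.0%) were also more frequent at the summits outside coding genes, and of the 500 less frequent there 60 were. Of all words 41.3% were more frequent at the summits outside coding genes, and of the 228 words with at most 1 G or C 89.9% were.

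The 10 motifs searched began with TAATTG as well as TAATTA for homeodomains. GAGAG stood for the Trl protein, then CAGGTA stood for Zelda. A pair of E-boxes followed, namely CACGTG along with CAGCTG. For DREF the word was TATCGATA. For the GATA family it was GATAAG. For Pho it was GCCAT. For AP-1 it was TGACTCA. All were read on both strands, and some can overlap, as the homeodomain words share their start and the DREF word can run into the GATA word. No motif was called as different between summit and flank (exact McNemar test, every adjusted p = 1). TAATTG was present at 26 summits, or 9.22%, and 28 flanks, or 9.93%. TAATTA was present at 21 summits, or 7.45%, and 13 flanks, or 4.61%, with 20 pairs having it at the summit only and 12 at the flank only. Over the top rule-meeting peaks of each replicate, summits held TAATTA in 6.62% ± 1.05 of cases and flanks in 5.35% ± 0.581 (SD, n = 3), higher at summits in 3 of 3 replicates (exact sign-flip permutation p = 0.25). TAATTG went the other way, with 8.78% ± 1.94 at summits and 10.9% ± 3.02 at flanks, higher at summits in 1 of 3 (same exact test, p = 0.75). CACGTG (0.955% and 2.32%) and CAGCTG (1.34% and 2.05%) were lower at summits in 3 of 3 replicates (same exact test, both p = 0.25). Over the reproducible peaks outside coding genes, however, CACGTG was at 3 summits and 3 flanks, or 1.06% of both. CAGCTG was at 4 summits and 7 flanks of these peaks, or 1.42% and 2.48%. With so few copies, the direction in the replicates cannot decide whether either word is rarer at summits. GCCAT was at 17.0% of summits and 19.9% of flanks, and TATCGATA at 0.709% of both. At the summits of the other 2193 reproducible peaks the shares were 9.53% for TAATTG, 6.89% for TAATTA, 15.6% for GCCAT and 1.92% for TATCGATA. The absence of a call says only that no difference passed the threshold in these windows. It does not show that a word was equally frequent at summits and flanks.

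With windows of 100 bp on either side, 17 words were more and 5 less frequent at the summits of the same 282 peaks. Several of them overlap as parts of 1 longer word. AGTGTA was in 22.0% of summit and 5.32% of flank windows (exact McNemar test, adjusted p = 4.26e-06). ACACTG was in 22.3% and 7.80%, and CACTGA in 23.8% and 8.16% (same exact test, both adjusted p = 0.000267). ACTGAG was in 16.7% and 5.32% (same exact test, adjusted p = 0.00620). Other called words were A-rich, such as GAAAAA in 45.7% and 27.0%.

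The joined word CACTGAG was chosen after these results were seen and is given as a description, with no test. It lay within 100 bp of 35 of the 282 summits, or 12.4% (exact 95% interval 8.80 to 16.8), and in 1.77% of equally wide flanks. For peaks inside coding genes the shares were 7.05% and 0.750%, near a coding TSS 3.80% and 1.77%, and for low-ranked peaks under the same rule 4.42% and 2.15%. Over the 3 replicates 10.4% ± 0.409 of the top peaks that met the rule had it, against 3.94% ± 0.471 of the remaining ones (SD, n = 3). The replicates' top lists overlap most of the 282 peaks, so these shares are not separate evidence. Within 100 bp of these summits it occurred at 670 copies per Mb, against 95.3 per Mb over the 6 arms.

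Most copies of the word read toward the summit. Of its 38 copies within reach of the 282 summits, 36 read toward the summit and 27 lay more than 50 bp from it. The parts of the word were called in these peaks with windows of 100 bp and not of 50 bp. That choice favours copies farther from the summit. Around peaks inside coding genes 48 of 51 copies read toward the summit, near a coding TSS 36 of 58, and around low-ranked peaks under the same rule 115 of 177. After the word, 34 of the 38 copies had AAA within the next 10 bases, or 89.5%. The share was 80.4% around peaks inside coding genes, 58.6% near a coding TSS, 63.3% around low-ranked peaks under the same rule and 31.0% of all 12761 copies on the 6 arms. In 3 peaks a copy on each side faced the summit. The slp2 and noc regions printed above are examples, with copies at -93 and 61 bp and at -75 and 54 bp from the summit. Soft-masked sequence, which marks repeats and low complexity, held 24 of the 38 copies. On average it made up 16.9% of the bases within 50 bp of the 282 summits. That window is narrower than the one in which copies were counted, so the values are not directly comparable. Soft-masked sequence held 33 of 51 copies around peaks inside coding genes, 24 of 58 near a coding TSS and 65 of 177 around low-ranked peaks under the same rule. The part of soft-masked sequence in the result was not tested.

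The 35 peaks with the word were not the strongest ones. Their median signal was 120, against 130 for the 247 without it, and 15 of 35 against 136 of 247 were supported by all 3 replicates. Their median distance to a coding TSS was 7044 bp, against 4734 bp. Of the 35 peaks, 4 lay in a noncoding RNA gene.

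**Figure D5:**
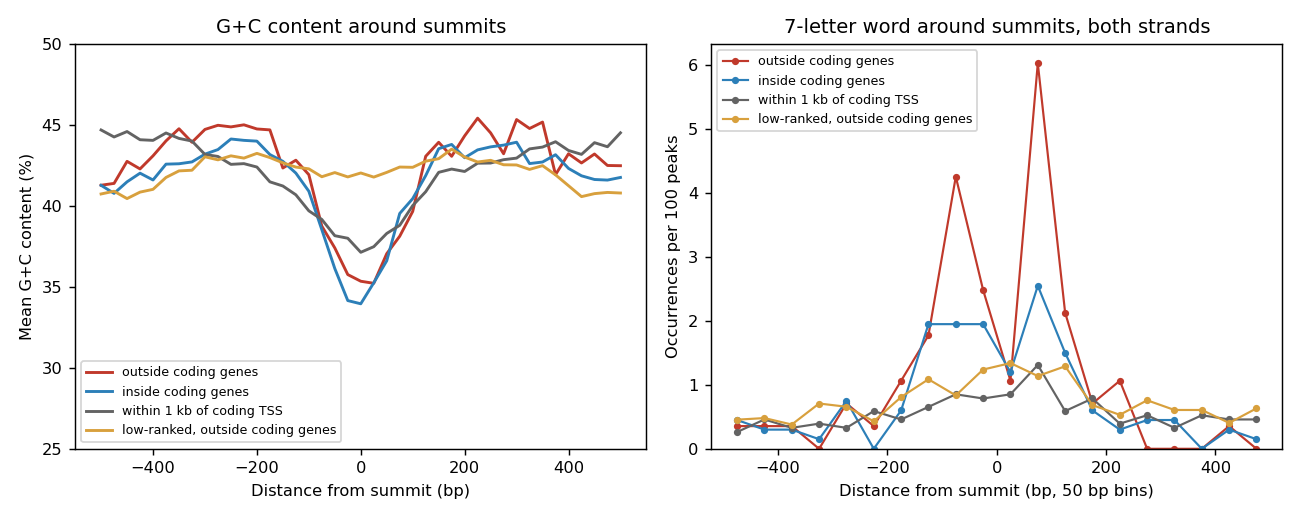
Left, mean G+C content (y axis, percent) by distance from the summit (x axis, bp) for peaks outside coding genes, inside coding genes, near a coding TSS and low-ranked peaks outside coding genes; right, copies of CACTGAG per 100 peaks in 50 bp bins. From 200 to 25 bp before the summit the curve falls from 44.8% to 35.8% outside coding genes and from 43.2% to 41.8% for low-ranked peaks. The word reaches 4.26 and 6.03 copies per 100 peaks in the bins 50 to 100 bp on either side of summits outside coding genes, with 2.48 and 1.06 in the bins that adjoin the summit.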

How the data were processed

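ChIP-seq of NK7.1-eGFP was deposited for 3 biological replicates of 1 group, numbered in the labels. The authors called peaks per replicate and on pooled alignments against a control, and derived an optimal list thresholded by irreproducible discovery rate, per the listings deposited with the libraries; this list is the reproducible list here. Neither an aligner nor a caller is named in the labels or listings read here. The deposited signal value is a score on the caller's own scale and was used only to rank, describe and sum peaks within a list. The deposited −log10 q-value was capped, with 1276 of 2475 reproducible peaks at 3.41, and was not used for ranking. The dm3 lists were not used. Some regions are not reported here.

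Coordinates are dm6, 1-based. Every peak end lay within the Release 6 arms, and genes came from the Ensembl 115 annotation of that assembly. Low-ranked peaks are the 23895 pooled peaks that overlap no reproducible peak; 3955 of them met the rule. A replicate supported a peak if its top 2475 peaks overlapped it by at least 1 bp. The side of each flank window came from a checksum of the position. Values per replicate were compared by exact sign-flip permutation, two-sided; words by the exact McNemar test with Benjamini-Hochberg adjustment at 0.05; shares have exact Clopper-Pearson 95% intervals. Peaks are not replicates, and where nothing says that embryo collections were independent the p-values measure only the spread between these libraries. The word test was also run on simulated data with planted words. Their recovery is not given here, so its power at the shares seen in these peaks is not stated. Regions named were the 10 strongest, the strongest per noncoding biotype, gene list and arm, the farthest, those at the 1 kb limit and the group with the highest summed signal; other names, CACTGAG and the comparisons of arm 3L and of noncoding TSSs were chosen after values were seen. Permutation p-values are unadjusted. The peaks, gene lists and tests were chosen with earlier results of these data known. Alternatives covered the TSS limit, stricter intergenic sequence, the strongest 1237 peaks, windows, flanks, overlap and leaving out replicates. Python 3.11.15, NumPy 2.4.6, SciPy 1.17.1, pandas 2.3.3 and Matplotlib 3.10.9 were used.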

Additional observations from a re-analysis of the deposited data

How the results depend on the processing

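The lower share of rule-meeting summits among top peaks kept its direction in 7 of 7 alternatives (-6.92 to -5.76 points), the higher share in noncoding genes in 6 of 6 (4.23 to 7.74 points) and the lower G+C at the summit in 12 of 12 (-6.93 to -4.64 points). Support by single replicates turned to 0.357 points higher with top lists 2 times as long and to 0.915 points higher among the strongest 1237 peaks, and the percentile to 0.0541 points higher among these; their other alternatives kept the direction. Leaving out 1 replicate gave -4.78 to -2.66 points for support and -0.583 to -0.443 for the percentile. It gave 10.5 to 12.1 points for a noncoding TSS and 3.23 to 5.91 for arm 3L. For each result with such a mean, all 3 replicates shared the direction, so leaving out 1 could not change it. These means nevertheless count among the alternatives given here. The number of 6-base words called was 3 with a TSS limit of 500 bp, 1 with windows of 25 bp, 22 with windows of 100 bp and 1 with the flank on the opposite side, an alternative chosen after seeing the data; it was 0 in the 6 others, including a seeded choice of side. CAAATA was the word called with 25 bp and AAAGTA that with the opposite side; the cause was not tested. None of the 10 motifs was called in 13 alternatives. Those that leave out a replicate only average the calls in each replicate's own top rule-meeting peaks, which were 0 in all 3. The strict intergenic alternative gives no value for noncoding annotation, and longer top lists none for the percentile. No paired analysis was possible because there is only 1 group, with no other group to pair by replicate number; the differences within replicates and between summit and flank are paired by construction. With 3 replicates no sign-flip p can fall below 0.25, and unknown depth leaves the precision of single signal values unknown.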

Other observations

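GGTCACACT, the core of the promoter element Motif 1 bound by the zinc-finger protein M1BP, was searched after it was seen in the slp2 region. It was within 50 bp of the summit in 2 of 282 peaks outside coding genes, 0 of 667 inside coding genes, 13 of 1526 near a coding TSS and 1 of 3955 low-ranked peaks under the same rule. The slp2 peak held 2 copies, with its summit 4314 bp from the TSS of slp2, and was the only peak of the 4 sets with more than 1. The other peak outside coding genes was weak, with signal 93.1.

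Of the 282 peaks, 10 overlapped another reproducible peak, so a replicate peak can support both, and the edge of 12 reached into a coding gene although the summit did not.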
